A study of Homo sapiens with 24 samples.

Results

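The mature miRNAs hsa-miR-203a-3p, hsa-miR-204-5p, hsa-miR-205-5p, hsa-miR-205-3p and hsa-miR-184, 5 miRNAs with known roles in epithelial tissues, were taken by name from a miR-seq table of 2656. All 5 had a count in at least 1 library. The list was chosen by known epithelial roles with earlier values of these libraries in view, namely the differences of miR-205-5p under either knockdown in both cultures and of miR-184 and miR-204-5p under RELB knockdown in adherent culture. For that reason, the knockdown comparisons are given as levels and differences with their errors, without p-values. Where a value is said to lie past the thresholds of a call, defined below, that rests on a test of those same contrasts. It is a description only, and no support is drawn from it.

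The 24 miR-seq libraries, in 6 groups of 4 replicates, came from OV90, a cell line established from a human ovarian carcinoma. The cells carried an shRNA that was a negative control (shNeg) or was directed against RELA (shRELA) or RELB (shRELB), and each was grown in adherent culture or as spheroids, the condition that enriches for tumor-initiating cells (TICs). All groups, controls included, received 1 µg/ml doxycycline for 72 h to induce the shRNA. The labels give the genotype of the shNeg cells as wild type, and the titles give the shRNA. Adherent cells grew in RPMI medium with tetracycline-free fetal calf serum. Spheroids grew in ultra-low attachment plates in DMEM-F12 with serum replacement and the growth factors EGF and FGF. Attachment, medium and growth factors therefore changed together between the cultures and cannot be told apart. How many hairpins or clones were used for each gene is not given in the sources used here, and RELA and RELB, being mRNAs, were not measured in these libraries.

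A miRNA is cut from a hairpin that can yield a mature strand from its 5′ arm (5p) and from its 3′ arm (3p), and it recognises mRNAs mainly through its seed, bases 2 to 8. MiR-203a is known from skin, where it restrains the stem-like state of the basal layer. MiR-205 is abundant in stratified epithelia and is known, with the miR-200 family, for keeping epithelial cells from a mesenchymal state through ZEB1 and ZEB2. MiR-204 is known from the retinal pigment epithelium and from the intron of its host gene TRPM3, and miR-184 from the corneal epithelium and the lens. RELA belongs to the canonical and RELB to the alternative NF-κB pathway.

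The mature sequences of all 5 miRNAs were matched in RefSeq (GRCh38.p14). They are shown because a shared seed would let miRNAs recognise the same target sites, and the capitals mark the seed.
hsa-miR-203a-3p: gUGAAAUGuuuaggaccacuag
hsa-miR-204-5p: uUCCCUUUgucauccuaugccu
hsa-miR-211-5p: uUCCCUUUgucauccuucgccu
hsa-miR-205-5p: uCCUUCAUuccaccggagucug
hsa-miR-205-3p: gAUUUCAGuggagugaaguuc
hsa-miR-184: uGGACGGAgaacugauaagggu
No 2 of the 5 miRNAs had a seed in common. Among the other mature miRNAs, 1 shared a seed with any of them, miR-211-5p with miR-204-5p. Those 2 sequences of 22 bases were identical over the first 16 and differed by A17U and U18C, counted from the 5′ end with the base of miR-204-5p first, so a read that ends early could come from either. The 5 miRNAs came from 4 hairpins on 4 chromosomes. MiR-205-5p (chr1:209432166-209432187, plus strand) and miR-205-3p (chr1:209432203-209432223, plus strand) came from a hairpin that overlapped an exon of the long noncoding RNA gene MIR205HG. MiR-204-5p (chr9:70810031-70810052, minus strand) lay in an intron of TRPM3, on the strand of that gene. MiR-184 (chr15:79209840-79209861, plus strand) lay in an intron of ANKRD34C-AS1, a noncoding gene of the opposite strand, and miR-203a-3p (chr14:104117469-104117490, plus strand) lay opposite the hairpin of MIR203B.

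Levels are given as CPM, counts scaled to a common library size, after TMM scaling, which corrects for differences in library composition. The total count per library was 3797175 to 8283549 in adherent culture and 959141 to 3580931 in spheroid culture, so a low miRNA was measured less precisely in spheroids. Spheroid shNeg replicate 1 stood apart, with a count for 432 miRNAs, whereas the other 3 spheroid shNeg libraries had one for 814 to 887. Each error draws on all 24 libraries, so that library also weighs on the errors of comparisons it is not part of. Fold changes of miR-205-5p, miR-184 and miR-204-5p in comparisons that include it are given with and without it, except in alternative fits. The correlations and marker lists are given only with it. As the libraries are bulk samples, fewer cells that express a miRNA and less of it per cell cannot be told apart. Of the 5 miRNAs, 4 reached 1 CPM in at least 4 libraries and were among the 905 miRNAs tested, miR-205-3p being the exception. A miRNA was called where the FDR was under 0.01 and its level was over 2-fold higher or lower. The 10 other epithelial miRNAs on a list of markers, which holds the miR-200 family, all passed the filter and summed to 9051 to 28088 CPM per library. A list of 5 mesenchymal and stromal miRNAs summed to 19.4 to 272 CPM.

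**Figure D1:**
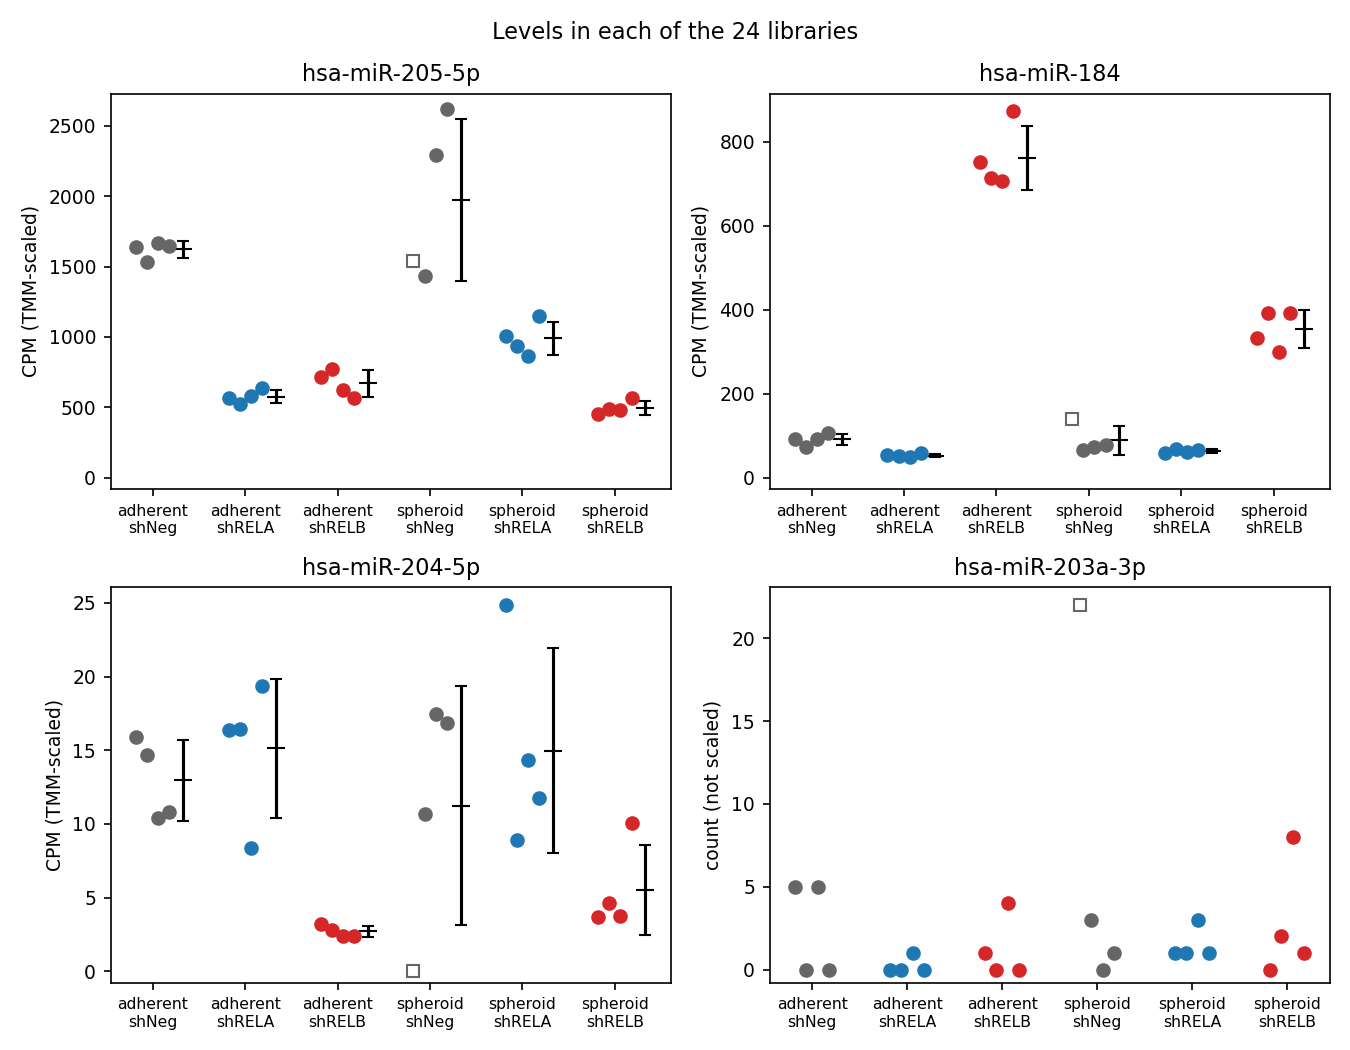
Levels of miR-205-5p, miR-184 and miR-204-5p in CPM (linear axes, TMM-scaled) and counts of miR-203a-3p in each of the 24 libraries, by group. Points are libraries, the open square is spheroid shNeg replicate 1, and the bars beside the points give the mean and SD of 4 libraries. MiR-184 was 707 to 873 CPM in the adherent shRELB libraries and 299 to 391 CPM in the spheroid shRELB libraries, above every other library, where the highest was 139 CPM.

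MiR-205-5p was the most abundant of the 5 miRNAs in 5 of the 6 groups and was lower under both knockdowns in both cultures. In adherent culture, it was 1637, 1532, 1670 and 1649 CPM with shNeg, 564, 521, 583 and 635 CPM with shRELA, and 717, 774, 622 and 567 CPM with shRELB. Neither knockdown group overlapped the controls. The log2 fold change was -1.49 (SE 0.18) with shRELA and -1.28 (SE 0.18) with shRELB, and both lay past the thresholds of a call.

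In spheroids, miR-205-5p was 1543, 1433, 2296 and 2621 CPM with shNeg, 1007, 939, 866 and 1148 CPM with shRELA, and 453, 488, 479 and 569 CPM with shRELB. The controls fell into a lower pair, replicates 1 and 2, and a higher pair, and every knockdown library lay below all of them. The log2 fold change was -0.995 (SE 0.18) with shRELA, just short of a fold of 2, and -1.99 (SE 0.18) with shRELB, past the thresholds. Without spheroid shNeg replicate 1, the shRELB value was -2.09 (SE 0.17). The shRELA value passed a fold of 2 without spheroid shNeg replicate 1 (-1.10) or replicate 2 (-1.13) and without spheroid shRELA replicate 1 (-1.04) or replicate 4 (-1.09). It also did so with library totals in place of TMM, at -1.40.

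The order of the 6 group means of miR-205-5p was spheroid shNeg (1973 CPM), adherent shNeg (1622 CPM), spheroid shRELA (990 CPM), adherent shRELB (670 CPM), adherent shRELA (576 CPM) and spheroid shRELB (497 CPM). The libraries of the 2 shNeg groups overlapped, as did those of adherent shRELB with adherent shRELA and those of adherent shRELA with spheroid shRELB. No overlap was seen between adherent shNeg and spheroid shRELA, or between spheroid shRELA and adherent shRELB. The log2 difference of shRELB from shRELA was 0.22 (SE 0.18) in adherent culture and -0.99 (SE 0.18) in spheroids, where the groups did not overlap.

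Nearly the whole yield of the MIR205 hairpin was read from its 5′ arm. MiR-205-5p had 88032 counts over the 24 libraries, and miR-205-3p had 1, in adherent shRELA replicate 3. The 3′ arm thus held 0.00114% of the counts of the hairpin (exact 95% interval 2.88e-05 to 0.00633%, counting error only). In the other libraries miR-205-3p was at 0, which allows up to 3 counts, and no ratio of the arms can be followed from group to group.

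MiR-184 was the miRNA of the list with the largest difference, and it was high with shRELB alone. Its adherent levels were 93.0, 74.1, 92.2 and 107 CPM with shNeg, 53.7, 50.8, 48.2 and 58.7 CPM with shRELA, and 750, 714, 707 and 873 CPM with shRELB. The shRELB libraries were higher and the shRELA libraries lower than every control. The log2 fold change was 3.05 (SE 0.21, an 8.30-fold higher level) with shRELB, past the thresholds, and -0.79 (SE 0.20) with shRELA, short of a fold of 2. Of the 905 miRNAs tested, the shRELB value was the 6th highest.

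In spheroids, miR-184 was 139, 65.7, 72.3 and 77.9 CPM with shNeg, 58.6, 68.3, 60.9 and 66.1 CPM with shRELA, and 333, 391, 299 and 391 CPM with shRELB. The highest control was replicate 1, the library that stood apart, and the mean of the controls was 88.6 ± 33.7 CPM (SD, n = 4) with it and 72.0 ± 6.12 CPM (SD, n = 3) without it. Every shRELB library lay above all controls, whereas the shRELA libraries overlapped them. The log2 fold change was 1.999 (SE 0.21) with shRELB, past the thresholds, and -0.48 (SE 0.21) with shRELA. Without spheroid shNeg replicate 1, these values were 2.30 (SE 0.18) and -0.18 (SE 0.18).

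Set against each other, the knockdowns differed for miR-184 by a log2 fold change of 3.85 (SE 0.22) for shRELB over shRELA in adherent culture and 2.48 (SE 0.21) in spheroids, both past the thresholds. The order of the group means was adherent shRELB (761 CPM), spheroid shRELB (354 CPM), adherent shNeg (91.6 CPM), spheroid shNeg (88.6 CPM), spheroid shRELA (63.5 CPM) and adherent shRELA (52.8 CPM). The 2 shRELB groups overlapped neither each other nor any other group, and from adherent shNeg downward each group overlapped the next.

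MiR-204-5p was a low miRNA, with at most 117 counts in a library, and was lowest with shRELB. In adherent culture, it was 15.9, 14.7, 10.4 and 10.8 CPM with shNeg, 16.3, 16.4, 8.38 and 19.4 CPM with shRELA, and 3.18, 2.81, 2.40 and 2.42 CPM with shRELB. All 4 shRELB libraries lay below every other adherent library, and the shRELA libraries spread over the range of the controls. The log2 fold change was -2.25 (SE 0.49) with shRELB, past the thresholds, and 0.23 (SE 0.44, 95% interval -0.66 to 1.12) with shRELA. With limma on log2(CPM + 1) in place of the counts, the shRELB value was -1.90 and no longer passed.

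In spheroids, miR-204-5p was 0, 10.7, 17.4 and 16.8 CPM with shNeg, 24.8, 8.93, 14.3 and 11.8 CPM with shRELA, and 3.69, 4.65, 3.72 and 10.0 CPM with shRELB. The 0 was replicate 1, the library that stood apart, where miR-184 was highest. With that library, the shRELB and shNeg groups overlapped and the log2 fold change was -0.997 (SE 0.51, 95% interval -2.04 to 0.05), short of the thresholds. Without it, the groups did not overlap and the value was -1.38 (SE 0.39), past the thresholds. For shRELA, the value was 0.39 (SE 0.49) with it and -0.02 (SE 0.36) without it, and -0.04 with library totals in place of TMM.

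The order of the group means of miR-204-5p was adherent shRELA (15.1 CPM), spheroid shRELA (15.0 CPM), adherent shNeg (13.0 CPM), spheroid shNeg (11.2 CPM), spheroid shRELB (5.53 CPM) and adherent shRELB (2.70 CPM). Without spheroid shNeg replicate 1, the spheroid shNeg mean was 15.0 CPM (SD 3.74, n = 3) and that group moved from 4th to 2nd. The first 4 groups overlapped one another, and the 2 shRELB groups did not overlap each other. The log2 difference of shRELB from shRELA was -2.47 (SE 0.49) in adherent culture, past the thresholds (-2.07 and short of them with limma). In spheroids, it was -1.38 (SE 0.49), short of them with all libraries, and -1.36 (SE 0.35), past them, without spheroid shNeg replicate 1. That library is in neither group, so its removal acted on the shared error and the scaling, and the value hardly moved.

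**Figure D2:**
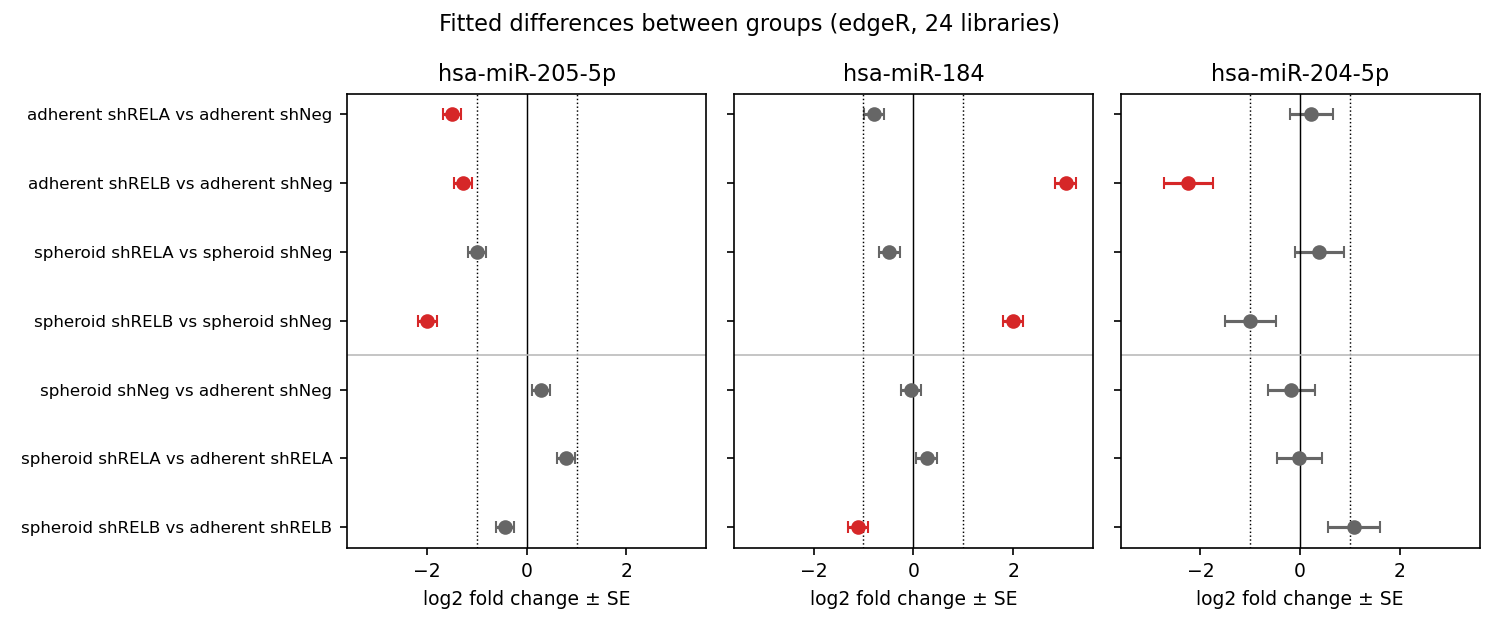
Log2 fold change (x axis, linear) of miR-205-5p, miR-184 and miR-204-5p in the 4 knockdown comparisons, above the grey line, and the 3 comparisons of spheroid with adherent culture, below it. Bars are standard errors, dotted lines mark a fold of 2, and red points lay past both thresholds of a call. The miR-184 points of the shRELB knockdown lay at 3.05 and 1.999, opposite in sign to those of miR-205-5p at -1.28 and -1.99.

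MiR-203a-3p was at the edge of detection. Its counts were 5, 0, 5 and 0 with shNeg, 0, 0, 1 and 0 with shRELA, and 1, 0, 4 and 0 with shRELB in adherent culture. In spheroids, they were 22, 3, 0 and 1 with shNeg, 1, 1, 3 and 1 with shRELA, and 0, 2, 8 and 1 with shRELB. Only spheroid shNeg replicate 1, the library that stood apart, had more than 8 counts, and 19 of the 24 libraries had at most 3, the number that a count of 0 allows. MiR-203a-3p passed the filter through exactly 4 libraries at 1 CPM or more, all of them spheroid and that one among them. It thus passed through the culture where it was higher. No fold change is given for that reason, and no support is drawn from its place in the counts between the cultures. The 5′ arm of its hairpin and both arms of MIR203B, which overlaps it on the other strand, had no count in any library.

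Past the thresholds of a call lay 1 of the 4 miRNAs tested with shRELA in adherent culture, where 3.76% of all miRNAs tested were called, and 3 of the 4 with shRELB, where 7.07% were. In spheroids, 0 of the 4 did with shRELA, where 15.1% of all were called, and 2 of the 4 with shRELB, where 13.4% were. The 2 of 4 that differed between shRELB and shRELA in adherent culture stood beside a background of 10.8%, and the 1 of 4 in spheroids beside 6.63%. Nothing is read from these counts, since the list was selected on these contrasts. The knockdown comparisons of a culture share their control libraries.

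**Figure D3:**
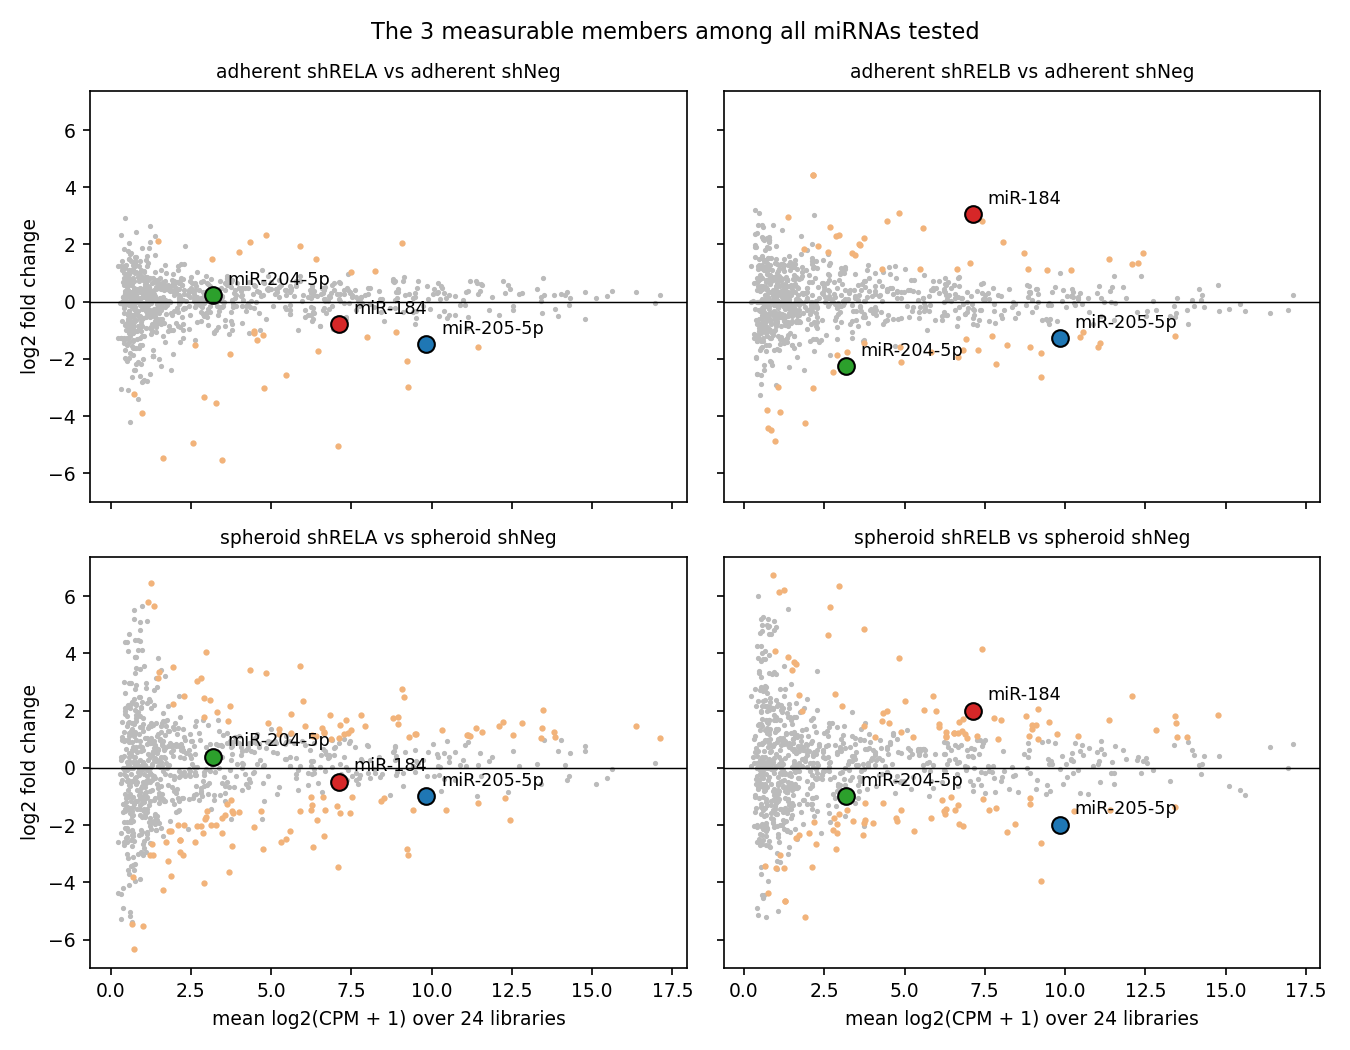
Log2 fold change (y axis) against the mean level as log2(CPM + 1) over 24 libraries (x axis) for the 905 miRNAs tested in the 4 knockdown comparisons. Grey points are miRNAs, orange points those past the thresholds, and the large points are miR-205-5p, miR-184 and miR-204-5p. MiR-184 lay near the upper edge of its abundance range with shRELB in adherent culture, where it had the 6th highest log2 fold change of all, 3.05.

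Whether culture altered these miRNAs was asked within each shRNA, a comparison that was treated as not used directly in the choice of the list. Its libraries did enter the knockdown comparisons that were in view, so the values are not independent of that choice. Those under a knockdown are given without FDRs, and their place against the thresholds is a description. With shNeg, none of the 4 miRNAs tested was called between spheroid and adherent culture, where 42.2% of all miRNAs tested were. MiR-203a-3p, 1 of those 4, had passed the filter through spheroid libraries only. By edgeR's quasi-likelihood test with Benjamini-Hochberg adjustment, the log2 fold change was 0.28 (SE 0.18, 95% interval -0.08 to 0.64, FDR 0.17) for miR-205-5p and -0.05 (SE 0.20, 95% interval -0.46 to 0.36, FDR 0.847) for miR-184. For miR-204-5p, it was -0.18 (SE 0.47, 95% interval -1.14 to 0.79, FDR 0.771) by the same edgeR test. The bounds of this TMM-scaled fit exclude a change of 2-fold for miR-205-5p and miR-184 but not for miR-204-5p. The median log2 fold change of all 905 miRNAs was -0.26 here and 0.17 with library totals in place of TMM, so such small differences depend on the scaling. With library totals, miR-205-5p came to 0.73 (SE 0.17, edgeR FDR 0.000643, an estimate below a fold of 2), and miR-184 and miR-204-5p turned in sign, to 0.36 and 0.28. With that SE, a 2-fold change of miR-205-5p is not excluded under library totals. When miRNAs under a mean of 10 CPM were left out, miR-205-5p came to 0.66 (edgeR FDR 0.000382), again below a fold of 2. Without spheroid shNeg replicate 1, the values were 0.38 for miR-205-5p, -0.35 for miR-184 and 0.23 for miR-204-5p.

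Under RELA knockdown, 0 of the 4 lay past the thresholds between the cultures, where 32.6% of all miRNAs tested did. MiR-205-5p lay higher in spheroids by a log2 fold change of 0.78 (SE 0.18), and all 4 spheroid libraries (866 to 1148 CPM) exceeded all 4 adherent ones (521 to 635 CPM), but the fold of 1.72 was below 2. MiR-184 differed by 0.26 (SE 0.20, 95% interval -0.15 to 0.68) and miR-204-5p by -0.02 (SE 0.45, 95% interval -0.93 to 0.90).

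Under RELB knockdown, 1 of the 4 lay past the thresholds, where 25% of all did. MiR-184 was lower in spheroids by a log2 fold change of -1.11 (SE 0.20), and the groups did not overlap. The value lay between -1.25 and -1.03 with each library left out in turn, and came to -0.997, just short of a fold of 2, when miRNAs under a mean of 10 CPM were left out. MiR-205-5p differed by -0.43 (SE 0.18) and overlapped. MiR-204-5p differed by 1.07 (SE 0.52), short of the thresholds, without overlap of the groups, 3.69 to 10.0 CPM against 2.40 to 3.18 CPM.

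The difference of a knockdown's change between the cultures combines the same libraries and is given as a description. For RELA knockdown, it was 0.50 (SE 0.25) for miR-205-5p, 0.31 (SE 0.29) for miR-184 and 0.16 (SE 0.65) for miR-204-5p on the log2 scale, and 0 of the 4 lay past the thresholds beside 7.62% of all miRNAs. Without spheroid shNeg replicate 1, these values were 0.40 (SE 0.23), 0.62 (SE 0.24) and -0.24 (SE 0.47). For RELB knockdown, the difference was -0.71 (SE 0.25) for miR-205-5p, -1.05 (SE 0.28) for miR-184 and 1.25 (SE 0.70) for miR-204-5p, and 1 of the 4, miR-184, lay past the thresholds beside 8.51%. Without that library, miR-205-5p came to -0.81 (SE 0.23) and miR-204-5p to 0.87 (SE 0.52). The miR-184 value was -0.75 (SE 0.23) without spheroid shNeg replicate 1 and no longer passed, and 13 of the 16 fits with 1 library left out ended below the thresholds, with values of -1.14 to -0.75. The exceptions were adherent shNeg replicate 4 and spheroid shNeg replicates 2 and 3.

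The other arm of the miR-204 hairpin was read at few counts. MiR-204-3p had 3, 0, 5 and 0 counts with shNeg, 3, 0, 1 and 3 with shRELA and 0, 0, 3 and 1 with shRELB in adherent culture. In the shallower spheroid libraries, it had 0, 2, 11 and 7 counts with shNeg, 8, 7, 11 and 3 with shRELA and 3, 2, 3 and 8 with shRELB. Its share of the counts of both arms, summed over a group, was 2.86% (exact 95% interval 1.24 to 5.55%) in adherent shNeg, 1.98% (0.801 to 4.04%) in adherent shRELA and 6.56% (1.82 to 16.0%) in adherent shRELB. The share was 21.7% (13.8 to 31.6%) in spheroid shNeg, 17.9% (12.3 to 24.7%) in spheroid shRELA and 20% (11.9 to 30.4%) in spheroid shRELB. These intervals cover counting error only and overlap between the 2 shRELB groups. MiR-204-3p reached 1 CPM in spheroid libraries only, so it passed the filter through the cultures where it was higher, and no fold change or test is given. MiR-211-5p, which shares the seed of miR-204-5p, had at most 10 counts in a library and 48 in all.

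Beside the 5 miRNAs, the list of 10 other epithelial miRNAs was counted with the same thresholds, and those called are named after their values were seen. The list was chosen with earlier results of these data known, so no support is drawn from its counts and medians. With shRELA in adherent culture, 0 were higher and 1 lower, miR-375-3p (median log2 fold change -0.43 against 0.09 for all miRNAs tested, of which 3.76% were called). With shRELB, 1 was higher, miR-200c-3p, and 0 lower (median 0.07 against 0.04, background 7.07%). In spheroids, 4 were higher with shRELA, miR-200c-3p and the clustered miR-183-5p, miR-182-5p and miR-96-5p, and 1 lower, miR-375-3p (median 0.73 against 0.09, background 15.1%). With shRELB, 3 of the miR-200 family were higher, miR-200c-3p, miR-141-3p and miR-200b-3p, and 0 lower (median 0.79 against 0.16, background 13.4%). Between spheroid and adherent shNeg, 0 were higher and 4 of the 10 lower, miR-31-5p, miR-96-5p, miR-141-3p and miR-200b-3p (median -1.07 against -0.26), a count near the background of 42.2%. The most abundant of them, miR-31-5p, had a log2 fold change of -1.70 (SE 0.20, edgeR FDR 7.57e-09) in spheroid shNeg cells, and its knockdown values were between -0.31 and 0.59, none of them called. Spheroid shNeg replicate 1 held the lowest levels of miR-96-5p and miR-200b-3p over all libraries, 0.733 CPM for each. Their spheroid medians were 97.8 and 20.5 CPM. It also held the lowest of miR-141-3p, 26.4 CPM against a spheroid median of 68.6 CPM. Calls of this list that use spheroid shNeg were not examined without that library.

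Levels of other marker lists moved with the groups as well, and their part in the results above was not tested. The summed level of the 5 mesenchymal and stromal miRNAs was 238 to 272 CPM in adherent shNeg, 27.8 to 59.0 CPM in adherent shRELA and 191 to 215 CPM in adherent shRELB. In spheroids, it was 79.5 to 87.7 CPM with shNeg, 19.4 to 36.5 CPM with shRELA and 93.4 to 140 CPM with shRELB. The sum followed its most abundant members: between spheroid and adherent shNeg, miR-143-3p and miR-145-5p were called lower, while miR-199a-5p and miR-214-3p were called higher, names given after their values were seen, and the median log2 fold change of the 5 was 0.06. All 5 passed the filter, and miR-143-3p was the most abundant of them, with a mean of 66.7 CPM. MiR-199a-5p and miR-214-3p were near the floor in adherent culture, with medians of 0.617 and 0.645 CPM. Their spheroid medians were 3.90 and 6.19 CPM, above the 1 CPM of the filter, whereas the adherent medians were below it. Both calls thus rest on low levels and on a filter met more readily in spheroids, and no support is drawn from them. The 8 blood, serum and endothelial miRNAs, of which 7 passed, summed to 14491 to 38256 CPM over all libraries, and miR-122-5p, known from the liver, made most of that sum with a mean of 19595 CPM. The 5 neural and muscle miRNAs, of which 4 passed, summed to 23.5 to 330 CPM, mostly miR-9-5p with a mean of 148 CPM.

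The likeness of levels was measured by Pearson's correlation of log2(CPM + 1) across the 24 libraries, as a description, since the libraries share groups and depth. Over 334 miRNAs that averaged 10 CPM or more, the most like miR-205-5p were let-7b-5p (r = 0.89), miR-642b-5p (r = 0.80) and miR-224-5p (r = 0.80). Let-7b-5p was 4142 CPM in spheroid shNeg and 1265 CPM in adherent shNeg, and 206 to 585 CPM on average in the 4 knockdown groups. The most like miR-184 were miR-92b-3p (r = 0.93), miR-1269a (r = 0.87) and miR-2116-3p (r = 0.87). MiR-92b-3p was 863 CPM in adherent shRELB and 319 CPM in spheroid shRELB, against 166 to 214 CPM on average in the other 4 groups. The most like miR-204-5p were miR-378i (r = 0.77), miR-1307-5p (r = 0.72) and miR-194-5p (r = 0.71). MiR-194-5p was 134 CPM in adherent shRELB against 607 CPM in adherent shNeg. Among the 3 measurable miRNAs themselves, r was -0.71 between miR-204-5p and miR-184, -0.43 between miR-205-5p and miR-184 and 0.28 between miR-204-5p and miR-205-5p. In spheroid shNeg replicate 1, miR-204-5p was at 0 and miR-184 at 139 CPM, the highest of its group. No r was computed without that library, so its weight in the values for miR-204-5p is not known.

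**Figure D4:**
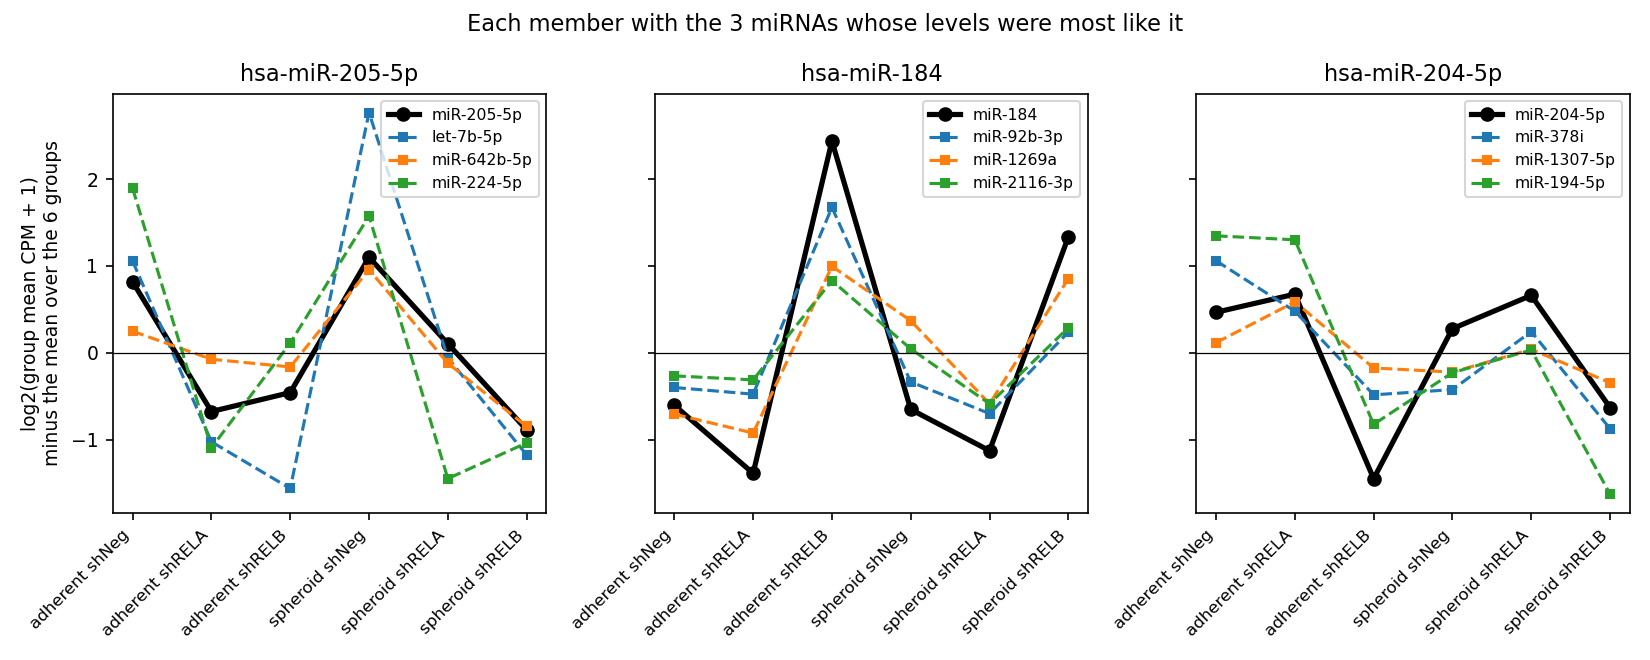
Group means as log2(CPM + 1), minus the mean over the 6 groups (y axis), for miR-205-5p, miR-184 and miR-204-5p (black) and the 3 miRNAs most like each (coloured), in the 6 groups (x axis). Points are means of 4 libraries, and the lines only join them. MiR-184 and miR-92b-3p, with r = 0.93 across the libraries, both peaked in adherent shRELB.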

How the data were processed

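The study's methods state that libraries were prepared from total RNA with a QIAseq miRNA kit, which adds unique molecular indices, that adapters were removed by Cutadapt and that miRDeep2 matched the reads to miRBase. Whether indices were collapsed is not given in the sources used here. The values deposited by the authors are estimated counts for each mature miRNA without any scaling, although their table is titled as CPM. Counts with decimals (84 miRNAs, 3.04% of the values above 0) were rounded to whole numbers.

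Groups were taken from the labels. All 24 libraries entered 1 fit in edgeR 4.0.16 (R 4.3.3), with TMM scaling and the 6 groups as the only term. The quasi-likelihood F test was run on every miRNA that reached 1 CPM in 4 or more libraries, and FDRs were adjusted over all of them. Nothing says that replicates were separate cultures, so FDRs measure only the spread between these libraries, which may be technical. No 2 libraries of a group held identical values. The members and lists were chosen with earlier results of these data known. The miRNAs named are the members, those that share their hairpin or seed, the 3 most correlated with each and the most abundant of each marker list. Other miRNAs of the epithelial and mesenchymal lists were named because they were called, after their values were seen. Alternatives were other filters, scalings, tests (limma 3.58.1, DESeq2 1.42.0) and samples, a replicate term, and each library left out. The fits were tested on simulated data.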

Additional observations from a re-analysis of the deposited data

Results flagged for a closer look

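Within groups of 4 libraries, a library far from the rest was looked for in 24 cases (Dixon's test at the 95% level). Chance alone gives about 1 in 20 such cases for values that vary smoothly, a rate that does not hold for counts near 0. In spheroid shNeg, replicate 1 lay far above the rest for miR-184, at 138.6 CPM against 77.9 CPM for the next, and for miR-203a-3p, at 16.1 CPM against 2.29 CPM. That library also had the fewest miRNAs with a count. In spheroid shRELB, replicate 4 lay far above the rest for miR-204-5p, at 10.0 CPM against 4.65 CPM. MiR-203a-3p was flagged at 1.34 CPM in spheroid shRELA replicate 3 and at 0.19 CPM in adherent shRELA replicate 3, values of 3 counts and 1 count. With 0 in all other libraries of adherent shRELA, any count would have been flagged there, so nothing is read from it.

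For miR-184, the change with RELB knockdown differed between the cultures by -1.05 on the log2 scale, smaller in spheroids. The comparison shares libraries with one that was in view when the miRNA was chosen, and its call was lost without spheroid shNeg replicate 1.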

How the results depend on the processing

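The depth limits miR-203a-3p and miR-205-3p to counts, and spheroid shNeg replicate 1 moves several values. The number of members called stayed at 1 for adherent shRELA and 3 for adherent shRELB against shNeg with each library left out, but 2 with limma for the latter.

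For spheroid shRELA against shNeg, where 0 members were called, 1 was called (miR-205-5p) without a filter, with a mean of at least 10 CPM, with median-ratio size factors, with library totals without TMM and with DESeq2, and 0 to 1 with each library left out. For spheroid shRELB against shNeg, 2 to 3 were called with each library left out. Between spheroid and adherent shNeg, where 0 were called, 1 was called (miR-203a-3p, through spheroid shNeg replicate 1) without a filter and with library totals, and 0 to 1 with each library left out. No support is drawn from a call of miR-203a-3p between the cultures, since only spheroid libraries reached 1 CPM. Between the cultures under RELB knockdown, 0 rather than 1 were called with a mean of at least 10 CPM. Of shRELB against shRELA, 1 rather than 2 were called with limma in adherent culture, and in spheroids 2 rather than 1 with only the groups compared and 1 to 2 with each library left out. For the RELB difference between cultures, where 1 was called, 0 were without a filter, with limma and with only the groups compared, 2 with library totals, and 0 to 1 with each library left out.

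The sign of small differences turned. For miR-204-5p, spheroid shRELA against shNeg came to -0.0387 with library totals and lay between -0.0163 and 0.65 with each library left out. Spheroid against adherent shNeg came to 0.18 with a mean of at least 10 CPM, 0.28 with library totals and -0.64 to 0.23 with each library left out, and the same under RELA knockdown to 0.20, 0.16 and -0.47 to 0.16. The RELA difference between cultures came to -0.0625 with median-ratio size factors, -0.12 with library totals, -0.0571 with DESeq2 and -0.24 to 0.52 with each library left out. For miR-184, spheroid against adherent shNeg came to 0.36 with a mean of at least 10 CPM, 0.0685 with median-ratio size factors, 0.36 with library totals, 0.0657 with DESeq2 and -0.37 to 0.0340 with each library left out. For miR-205-5p, it lay between -0.0750 and 0.38 with each library left out. The cause of these changes was not tested. In all, 566 of the alternative fold changes of members kept direction and side of the thresholds, 23 changed sign, 18 passed anew and 20 no longer passed.

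In the titles, replicates 1 to 4 of the groups share a number. The correlation of same-numbered libraries ran from -0.524 to 0.36, which does not settle whether they were handled together. With the number as a block, 1 member was called between spheroid and adherent shNeg (miR-203a-3p, from which no support is drawn). For the RELB difference between cultures, 0 were called and miR-184 came to -1.04. MiR-204-5p between the cultures under RELA knockdown came to 0.00935. No other count of members called moved with the block.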
